A study of Mus musculus with 36 samples.

Results

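The genes described here copy DNA or supply its building blocks, and 39 of them were chosen by symbol: factors that license origins and form the replicative helicase, DNA polymerases with their clamp and fork proteins, enzymes of deoxynucleotide supply, and factors that rebuild chromatin and its methylation behind the fork. A gene was followed through the array feature (a transcript cluster, the unit of the deposited table) annotated with its symbol alone, and where 2 features carried the symbol the one with the higher mean over all arrays was used. In this way 36 of the 39 genes had a value among 28940 analysed features, 13 for licensing and helicase, 16 for polymerases, clamp and fork, 4 for nucleotide supply and 3 for chromatin. Gins2, Rfc4 and Tyms lie only on features shared with another symbol (Gse1, Eif4a2 and Tyms-ps) and were not followed.

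RNA came from male C57Bl/6N Tac mice that carry a Scnn1b transgene (Scnn1b-Tg, Tg below) or from wild-type (WT) littermates. Scnn1b codes for a subunit of the sodium channel of epithelia, and a club cell promoter drives it here, so that the transgene is meant to act in airway epithelium and not in macrophages. Lavage cells were freed of Ly-6G-bearing granulocytes, and what remained, mostly macrophages, was measured on 36 Affymetrix arrays, each from 12 ng of RNA. Under specific-pathogen-free (SPF) housing each genotype had 3 arrays on the day of birth (postnatal day, PND, 0) and 4 arrays each on PND 3, on PND 10 and in adults of PND 42. Germ-free (GF) adults at PND 42 added 3 arrays for each genotype, which made 10 groups. An array of PND 0, 3 or 10 held a pool of 3 pups, and an array of PND 42 held 1 mouse. All values are log2 intensities, so that a difference of 1 is a 2-fold change, and they ran from 1.86 to 13.2 with array medians of 3.72 to 4.06. All 36 genes had a mean over the arrays above the highest of these medians. A change is called where limma's test, adjusted over all 28940 features by the Benjamini-Hochberg method, gave a p of 0.05 or less, and the share of all features that met the same rule is given with the counts of each comparison.

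Replication starts at origins, where the origin recognition complex, Cdc6 and Cdt1 load the Mcm2 to Mcm7 ring, which becomes an active helicase once Cdc45 and the GINS proteins join it. Primase and polymerase alpha lay down primers, polymerases delta and epsilon extend them on the Pcna clamp that the Rfc proteins load, and ribonucleotide reductase makes the deoxynucleotides that are used. Many of these genes are known targets of E2F transcription factors and are transcribed around the entry into S phase, and alveolar macrophages are known to be seeded around birth and then to keep up their number by dividing within the lung.

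Macrophage markers were high in every group, and the PND 0 arrays stood apart. The mean log2 value of 15 alveolar macrophage markers was 8.94 to 9.33 in the PND 0 groups and 9.51 to 10.43 in the others, with group means of at least 11.26 for Lyz2 and 11.12 for Cd68, while Siglecf was at 6.24 (WT) and 5.45 (Tg) at PND 0 against 7.86 to 9.71 later. At PND 0 the 4 club cell markers averaged 10.76 in WT and 11.05 in Tg arrays against at most 7.22 in later groups, the 7 alveolar type 2 markers 8.15 and 7.79 against at most 4.80, and the 8 fibroblast markers 4.73 and 6.50 against at most 3.35. Skeletal muscle markers (7) averaged 7.22 in Tg PND 0 arrays (6.66 to 8.08) against 3.74 in WT PND 0 arrays and at most 3.41 later, and erythroid markers (7) averaged 5.50 (3.67 to 6.74) against 3.78. The array labelled Tg PND 0 replicate 3 read 5.47 for Scnn1b, inside the range of the WT PND 0 arrays (4.06 to 6.69), while replicates 1 and 2 read 10.23 and 10.33. Counts of called genes over the whole set of replication genes, and medians of that set, are given with and without it. Counts by role, without overlap, past 2-fold or at an unadjusted p include it. Those of marker lists and other gene lists include it as well. At PND 3 the 10 neutrophil markers averaged 8.28 in Tg and 6.17 in WT arrays despite the depletion. In such bulk RNA, fewer dividing cells and less replication RNA per cell cannot be told apart.

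Promoter windows from RefSeq (build GRCm38.p6, 250 bases before to 50 bases after each gene's start) were found for 33 of the 39 genes. The windows were searched on both strands for an E2F motif (TTTCCCGC, TTTCGCGC, TTTGCCGC or TTTGGCGC), for CCAAT and for the cell cycle element CHR (TTTGAA). An E2F match was in 13 of the 33 genes (39.4%) and in 704 of 27025 genes with a window (2.6%). By role it was in 7 of 11 licensing and helicase genes (63.6%), 5 of 14 genes of polymerases, clamp and fork (35.7%), 0 of 5 of nucleotide supply and 1 of 3 of chromatin. CCAAT was in 60.6% of the 33 genes and 41.1% of all, and CHR in 12.1% against 20.2%. Of 22 genes of a mitosis list, 4.55% had an E2F match, 72.7% CHR and 81.8% CCAAT. Windows of Mcm4, Gins1, Gins2, Prim2, Pole and Rfc2 were not analysed here.

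Of the 17 genes whose array values or ranges are given in the results, 15 had a window and 6 of these an E2F match. Rrm2, Mcm10 and Chaf1a had a window without one. The stretches below carry the matches of 5 of the 6 and are printed to show where the matches lie and how they run together. The match of Cdt1, which begins at position 32, lay too far past the start to be printed. Capitals mark the matches on either strand, overlapping ones as 1 run, and positions count the gene's first base as 0. Mcm5 (chr8:75109296-75109427, plus strand, from -213 to -82) holds 2 overlapping matches, Mcm6 (chr1:128359685-128359875, minus strand, from -170 to 20) holds 3, Pola1 (chrX:93632226-93632353, minus strand, from -198 to -71) holds 1, Rfc3 (chr5:151651179-151651278, minus strand, from -70 to 29) holds 2 at its start, and Uhrf1 (chr17:56304068-56304195, plus strand, from -245 to -118 of the second of its windows) holds 1.
Mcm5: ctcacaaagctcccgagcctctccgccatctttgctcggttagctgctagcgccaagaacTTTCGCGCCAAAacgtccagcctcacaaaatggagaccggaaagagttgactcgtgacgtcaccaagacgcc
Mcm6: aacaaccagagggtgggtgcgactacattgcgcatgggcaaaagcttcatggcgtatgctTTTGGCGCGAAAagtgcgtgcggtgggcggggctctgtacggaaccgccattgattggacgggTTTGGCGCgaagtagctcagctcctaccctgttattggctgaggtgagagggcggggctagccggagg
Pola1: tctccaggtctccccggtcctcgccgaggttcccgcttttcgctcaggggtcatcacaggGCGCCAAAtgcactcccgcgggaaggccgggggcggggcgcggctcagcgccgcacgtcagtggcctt
Rfc3: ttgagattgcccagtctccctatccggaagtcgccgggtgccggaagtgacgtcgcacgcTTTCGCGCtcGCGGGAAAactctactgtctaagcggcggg
Uhrf1: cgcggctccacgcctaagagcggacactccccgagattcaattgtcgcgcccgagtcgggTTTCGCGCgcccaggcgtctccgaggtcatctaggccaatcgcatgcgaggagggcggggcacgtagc
The matches are letters in a window and not measured binding.

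Across the 10 groups, the replication genes were low at birth, high at PND 3 and PND 10, and intermediate in adults. The mean over the 36 genes in WT arrays was 5.47 at birth, 6.74 on PND 3, 6.78 on PND 10, and 6.48 (SPF) or 6.35 (GF) in adults. Tg arrays gave 5.44, 6.34 and 6.46 at the 3 young ages and 6.25 and 6.18 in SPF and GF adults. The group with the highest mean was WT PND 10 for 23 genes, WT PND 3 for 11 and WT PND 42 SPF for 2 (Pole2 and Pold2), so that no gene peaked in a Tg group. The lowest mean was at PND 0 for 35 genes, 18 of them in WT and 17 in Tg arrays, and in Tg PND 3 for Pold2. All 4 roles were lowest at PND 0 in each genotype, as the plot of class means by array shows. In the chromatin class of Tg mice the SPF adults (5.77) lay above PND 3 (5.62).

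**Figure D1:**
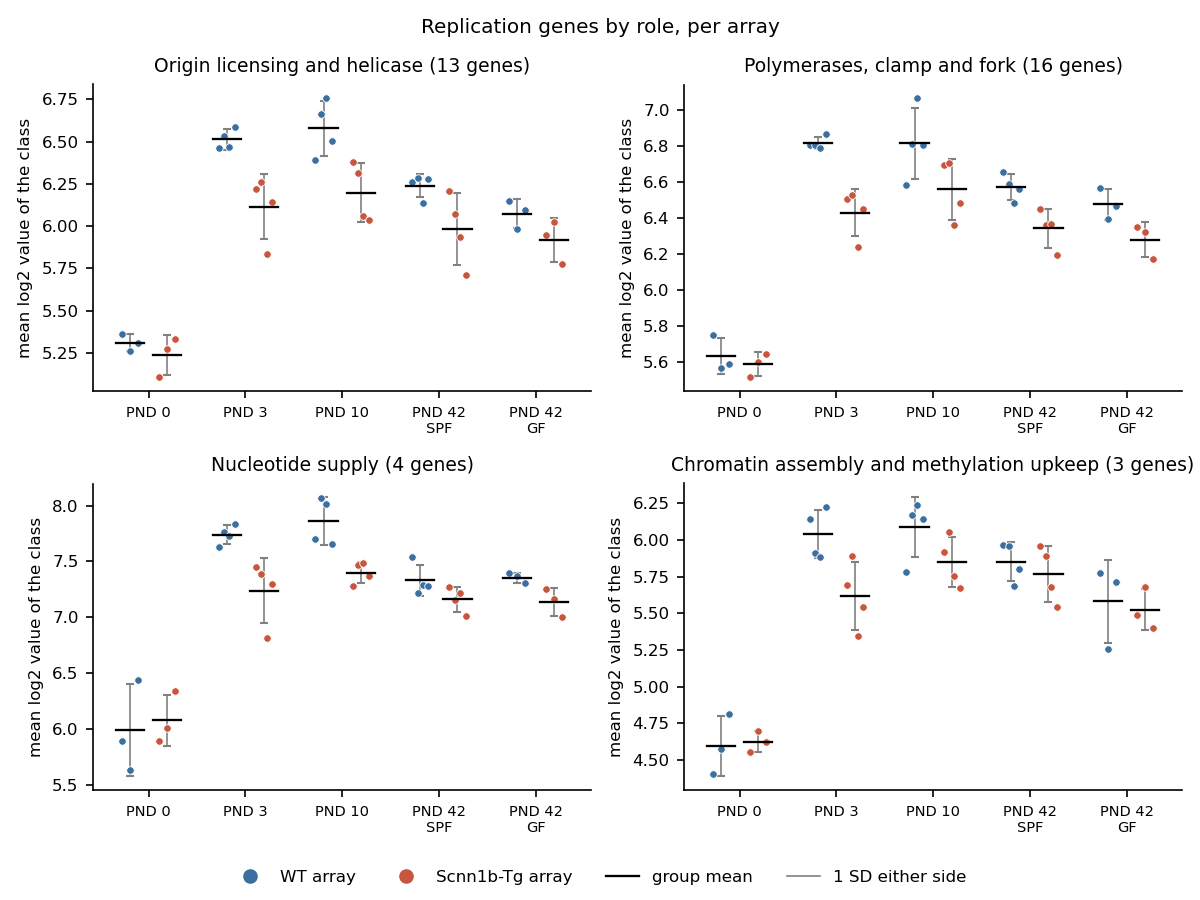
Mean log2 value of the genes of each role (y axis) in every array, by age, housing and genotype (x axis), with group means and 1 SD. In licensing and helicase the WT means went from 5.31 at PND 0 to 6.51 at PND 3, and the 4 Tg PND 3 arrays (5.84 to 6.26) lay below the 4 WT ones (6.46 to 6.59).

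**Figure D2:**
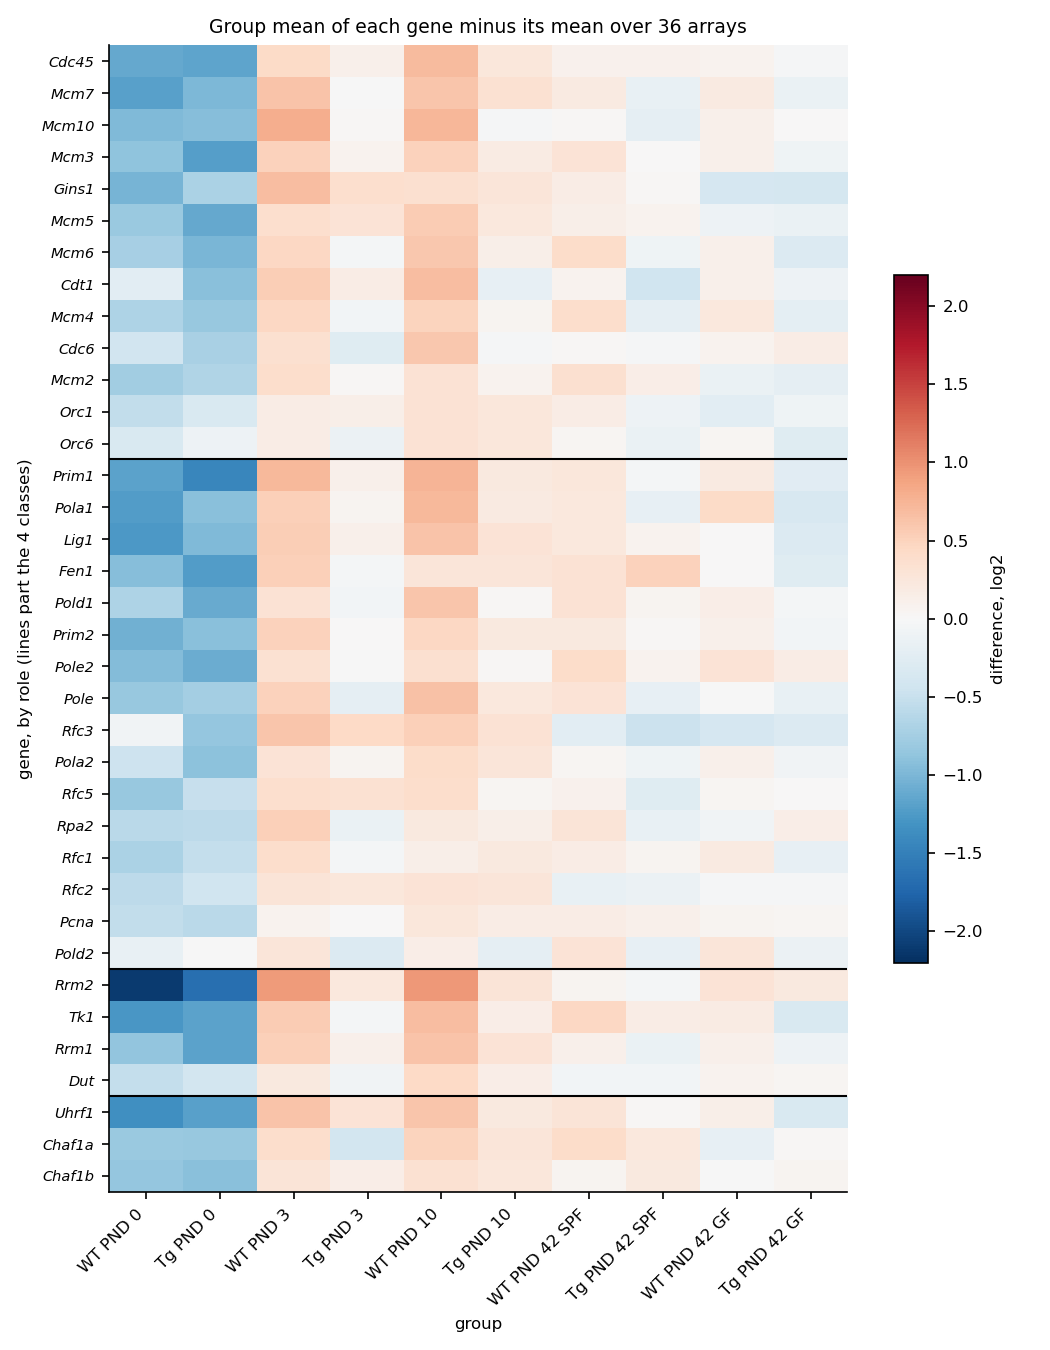
Group mean of each of the 36 genes minus its own mean over 36 arrays (colour, log2), with genes in rows by role and the 10 groups in columns. The PND 0 columns are blue in nearly every row, WT PND 3 and WT PND 10 are the reddest, and Rrm2 has the widest range of group means (3.06) and Pold2 the narrowest (0.59).

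From PND 0 to PND 3 nearly all of the genes rose. In WT mice 35 of 36 were called higher and 0 lower, with 14% of all features called higher, 33 of 36 had no overlap between the ages (15.1% of all features), and 26 passed 2-fold (4.73%). In Tg mice 30 of 36 were called higher and 0 lower (16% of all features higher), 28 did not overlap (17.8%) and 16 passed 2-fold (5.29%). The median change was 1.20 in WT and 0.97 in Tg mice, against 0.00 and 0.04 over all features. Centring each array on its median, chosen after the data were seen, moved the median of all features to 0.24 in WT and 0.28 in Tg mice and that of the genes to 1.44 and 1.22. Without the array labelled Tg PND 0 replicate 3 the Tg count was 31, with 29 genes called both ways, and the Tg median was 0.95. Cdc6 (0.60, adjusted p = 0.0305) and Dut (0.48, adjusted p = 0.0189) were then called and Rfc1 was not (0.39, adjusted p = 0.0851), and no gene moved by more than 0.375. Over all arrays left out in turn it ran from 25 to 31 in Tg and from 32 to 36 in WT mice. Over the same interval 4 of 4 club cell, 6 of 7 alveolar type 2 and 6 of 8 fibroblast markers fell in WT mice (12% of all features called lower). In Tg mice these counts were 4, 6 and 8 (14% of all features called lower), and 7 of 7 skeletal muscle markers (median -3.87) and 4 of 7 erythroid markers fell while 8 of 10 neutrophil markers rose. The part of these changes in cell makeup was not tested.

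Among the nucleotide supply genes Rrm2, the inducible small subunit of ribonucleotide reductase, had the largest rise in both genotypes. It read 6.05, 5.05 and 5.80 in the WT PND 0 arrays and 8.50, 8.73, 8.82 and 8.62 at PND 3, and 6.16, 5.82 and 6.25 in the Tg PND 0 arrays and 8.28, 8.40, 7.25 and 7.92 at PND 3. The ages did not overlap in either genotype, and the rise was 3.04 ± 0.22 (SE) in WT mice, or 8.20-fold (adjusted p = 4.49e-12), and 1.89 ± 0.22 in Tg mice, or 3.69-fold (adjusted p = 4.46e-08). Its partner Rrm1, the large subunit, rose by 1.39 in WT (adjusted p = 2.87e-08) and 1.29 in Tg mice (adjusted p = 7.21e-08). Dut, which clears dUTP, rose by 0.73 in WT (adjusted p = 0.000173) and differed by 0.33 in Tg mice (adjusted p = 0.0867). Tk1, the thymidine kinase of the salvage route, read 5.23, 5.46 and 7.15 in WT arrays at PND 0 and 7.59 to 7.96 at PND 3, a rise of 1.84 (adjusted p = 1.99e-05), and its Tg values were 5.55, 5.95 and 6.69 against 6.79 to 7.47 (1.13, adjusted p = 0.00445). The neighbours of the Tk1 feature in the array's numbering lie mostly on chromosome 8 (17 of 20), whereas Tk1 is on chromosome 11, so that it may read a copy. The feature among neighbours of chromosome 11 gave 1.95 in WT (adjusted p = 2.45e-07) and 0.96 in Tg mice (adjusted p = 0.00265).

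Of the licensing and helicase genes, 13 of 13 rose in WT and 11 of 13 in Tg mice. Mcm7, a subunit of the ring, rose by 1.81 in WT (adjusted p = 4.18e-09) and 0.97 in Tg mice (adjusted p = 9.78e-05), and Mcm10, which helps the loaded helicase to fire, by 1.76 (adjusted p = 4.73e-09) and 0.97 (adjusted p = 7.46e-05). Mcm5, another ring subunit and one of the few genes with the larger value in Tg mice, read 4.48, 4.81 and 4.26 in Tg arrays at PND 0 and 6.00, 5.94, 5.63 and 6.20 at PND 3 (1.43 ± 0.18, adjusted p = 2.01e-07). In WT mice its values were 4.998, 4.63 and 4.84 at PND 0 and 6.01, 5.97, 5.92 and 6.12 at PND 3 (1.18 ± 0.18, adjusted p = 5.88e-06). Both origin recognition genes rose in WT mice. Orc1, a subunit that binds ATP, rose by 0.70 (adjusted p = 0.00112) and by 0.46 in Tg mice (adjusted p = 0.0273). Orc6, another subunit of the complex, read 6.03 to 6.41 in WT at PND 0 and 6.54 to 6.91 at PND 3 (0.50, adjusted p = 0.0214), while Tg arrays read 6.38 to 6.50 and 6.16 to 6.84 (-0.01, adjusted p = 0.985, 95% confidence interval -0.34 to 0.33).

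Polymerase and fork genes rose in 15 of 16 cases in WT and 14 of 16 in Tg mice. A second feature of Fen1 was not called in WT mice (0.29, adjusted p = 0.451) and was called higher in Tg mice (0.64, adjusted p = 0.0406). Prim1, the catalytic subunit of primase, read 5.88, 4.98 and 4.58 in WT arrays at PND 0 and 7.15, 7.23, 6.68 and 7.09 at PND 3, a rise of 1.89 ± 0.30 (adjusted p = 8.85e-06). In Tg arrays Prim1 read 4.25, 5.07 and 5.35 and then 6.89, 6.53, 5.87 and 6.50 (1.55 ± 0.30, adjusted p = 0.000113). The ages were apart in each genotype. Pola1, the catalytic subunit of polymerase alpha, rose by 1.75 ± 0.16 in WT (adjusted p = 4.35e-10) and by 0.98 ± 0.16 in Tg mice (adjusted p = 1.07e-05). Pold2, an accessory subunit of polymerase delta, was the exception in both genotypes. Its WT values were 7.19, 7.52 and 5.80 at PND 0 and 7.11 to 7.42 at PND 3 (0.44, adjusted p = 0.286), and its Tg values 6.84 to 7.13 and 5.98 to 7.25 (-0.28, adjusted p = 0.513). In the chromatin class Uhrf1, which guides DNA methylation onto new strands, read 4.79, 4.40 and 5.61 in WT at PND 0 and 6.67 to 7.22 at PND 3 (1.99 ± 0.21, adjusted p = 9.52e-09), and rose by 1.49 in Tg mice from 4.96 to 5.34 up to 6.36 to 6.79 (adjusted p = 1.11e-06).

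Pcna, the sliding clamp, had a narrow range and a small spread. Its WT arrays read 9.72, 9.83 and 9.75 at PND 0 and 10.35 to 10.43 at PND 3, a rise of 0.62 ± 0.09 (adjusted p = 3.67e-06), and its Tg arrays 9.50, 9.85 and 9.82 and then 10.23 to 10.45 (0.60 ± 0.09, adjusted p = 4.94e-06). The feature lies among 19 neighbours of 20 on chromosome 19 while Pcna is on chromosome 2, and the other Pcna feature, on chromosome 2, gave 0.68 in WT (adjusted p = 1.56e-06) and 0.70 in Tg mice (adjusted p = 6.98e-07).

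The rise was the smaller one in Tg mice for 31 of 36 genes, and for 30 without the array labelled Tg PND 0 replicate 3. The median of Tg rise minus WT rise was -0.36 with that array and -0.29 without it, against 0.02 over all features both ways. These counts and medians use the same PND 3 arrays as the genotype comparison at PND 3 and are not separate from it. The difference between the genotypes in this rise, a comparison added after the data were seen, was called for 2 genes, Rrm2 (-1.15 ± 0.31, adjusted p = 0.0346) and Pola1 (-0.78 ± 0.22, adjusted p = 0.0488), with 1.58% of all features called lower. It had an unadjusted p under 0.05 in the lower direction for 10 genes (7.68% of all features) and in the higher direction for 1 (7.46%). The call of Pola1 was lost without the array labelled Tg PND 0 replicate 3 (-0.63, adjusted p = 0.139), as was that of Rrm2 (-1.06, adjusted p = 0.0735), and the count ran from 0 to 6 with single arrays left out: it was 6 without WT PND 0 replicate 3, 1 without WT PND 0 replicate 1 or WT PND 3 replicate 1, and 0 without WT PND 0 replicate 2, WT PND 3 replicate 2, 3 or 4, Tg PND 0 replicate 1 or 3, or Tg PND 3 replicate 3 or 4.

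**Figure D3:**
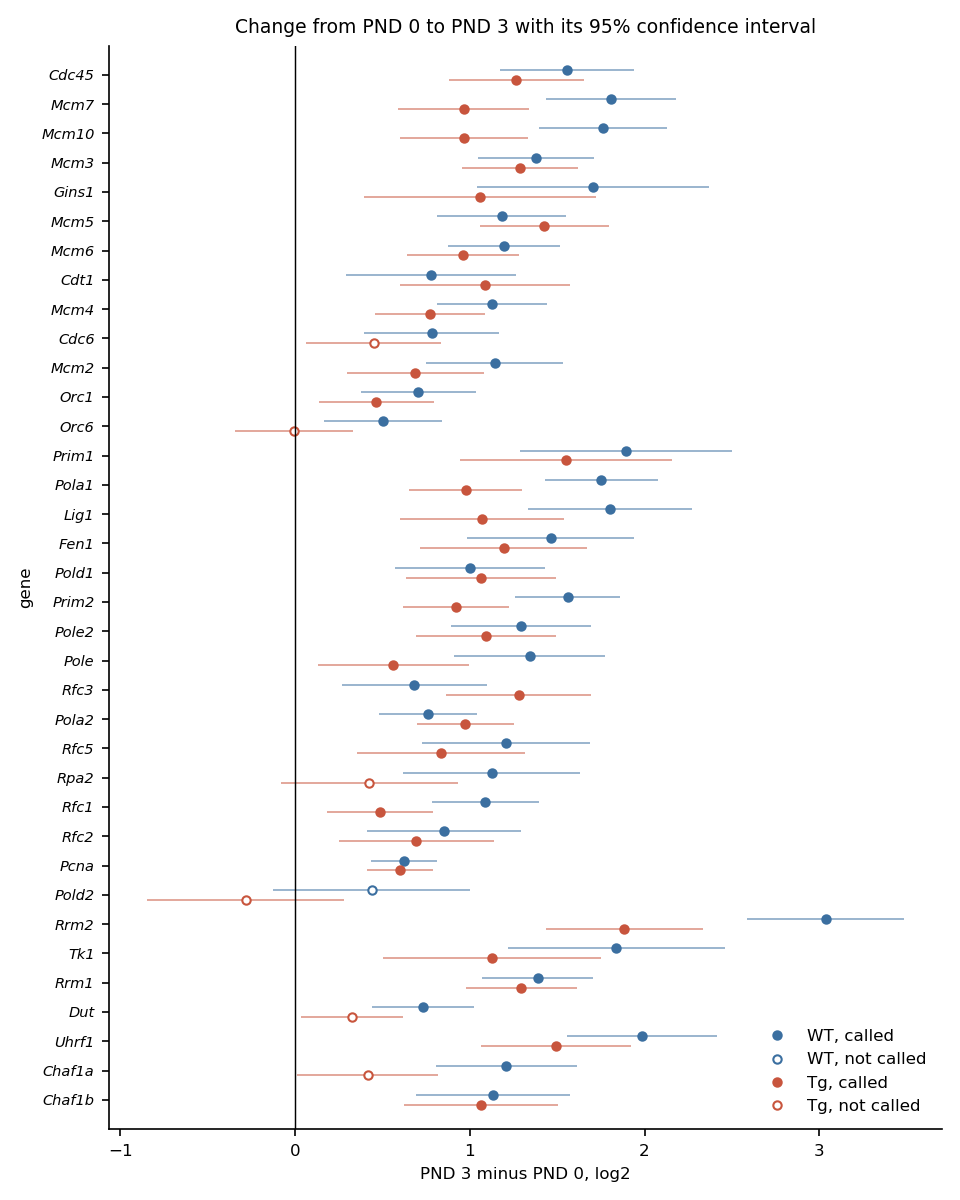
Change from PND 0 to PND 3 (x axis, log2) of each gene (y axis, by role) in WT (blue) and Tg mice (red) with 95% confidence intervals, filled where called. Rrm2 lies farthest to the right in both genotypes (3.04 and 1.89), and the Tg point lies to the left of the WT point for 31 of 36 genes.

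At PND 3 all 36 genes had a lower mean in Tg than in WT arrays, against 49.7% of all features, and 9 were called lower and 0 higher (1.87% and 2.17% of all features). The median difference was -0.42 against 0.00 over all features, and 16 genes had every Tg array below every WT array (5.92% of all features). No gene passed 2-fold. Quantile normalization applied again left 35 of 36 below 0, and median centring left all 36. By role 5 of 13 licensing and helicase genes, 2 of 16 polymerase and fork genes, 1 of 4 of nucleotide supply and 1 of 3 of chromatin were called. An unadjusted p under 0.05 was reached by 20 genes, all of them lower (7.40% of all features), 6 in licensing and helicase, 9 in polymerases and fork, 4 in nucleotide supply and 1 in chromatin.

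Chaf1a, the large subunit of the chromatin assembly factor, had the largest difference at PND 3. It read 5.92, 5.55, 5.56 and 6.11 in WT and 5.01, 5.09, 4.86 and 4.97 in Tg arrays, without overlap (-0.80 ± 0.18, 1.74-fold lower, adjusted p = 0.0071). Mcm10 read 5.52, 5.60, 5.11 and 5.45 in WT and 4.77, 4.72, 4.51 and 4.60 in Tg arrays (-0.77 ± 0.17, adjusted p = 0.00428). These genotypes did not overlap either, and both genes were called whichever array was left out. Pole, the catalytic subunit of polymerase epsilon, read 5.36, 5.48, 5.45 and 5.92 against 5.06, 4.70, 4.95 and 4.71 (-0.70 ± 0.20, adjusted p = 0.0364). For Rrm2 the WT values of 8.50 to 8.82 lay above the Tg values of 7.25 to 8.40 (-0.71 ± 0.20, adjusted p = 0.0433), and without the lowest, Tg replicate 3, it was -0.47 (adjusted p = 0.256). Rrm2 was not called without Tg replicate 4 or WT replicate 2, 3 or 4 either.

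Several helicase subunits were lower by similar steps. Mcm4 read 7.71, 7.68, 7.88 and 7.73 in WT and 7.42, 7.61, 6.80 and 7.12 in Tg arrays at PND 3 (-0.51 ± 0.14, adjusted p = 0.0364), and Mcm6 read 7.80, 7.84, 7.68 and 7.79 against 7.38, 7.60, 6.93 and 7.17 (-0.51 ± 0.15, adjusted p = 0.0416). Neither gene had an overlap, and in both the WT arrays were tightly grouped and the Tg arrays spread out. Mcm7 was lower by a similar step (-0.64 ± 0.17, adjusted p = 0.0255), as were Cdc6, the ring's loader (-0.62 ± 0.17, adjusted p = 0.0396, with 1 Tg array inside the WT range), and Prim2, the regulatory subunit of primase (-0.49 ± 0.14, adjusted p = 0.0339). Of the other ring subunits Mcm3 differed by -0.43 (adjusted p = 0.128), Mcm2 by -0.35 (adjusted p = 0.406) and Mcm5 by -0.06 (adjusted p = 0.958). Of the 9 genes called, 6 had a promoter window, and 3 of these (Cdc6, Mcm6 and Mcm7) held an E2F match. The median difference of genes with a match was -0.37 and that of genes with a window but no match -0.42.

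The count at PND 3 was sensitive to single arrays. It was 2 without Tg replicate 3 or WT replicate 2, 3 without Tg replicate 4, WT replicate 3 or WT replicate 4, and 5 without WT replicate 1. The neutrophil markers moved with the genotypes at this age, with 5 of 10 called higher in Tg arrays and array means of 7.68 to 9.15 in Tg arrays and 5.57 to 7.42 in WT ones, and 4 of 7 monocyte markers were called higher and 1 lower. Of 15 alveolar macrophage markers 5 were called lower and 0 higher in Tg arrays (mean 9.79 in WT and 9.51 in Tg arrays). Tg replicate 3, with the highest neutrophil mean (9.15), also had the lowest mean over the replication genes (6.08, against 6.36 to 6.47 in the other Tg arrays). WT replicate 1 had a neutrophil mean of 7.42, near the lowest Tg array at 7.68, and a replication mean of 6.72, within the 6.70 to 6.82 of the WT arrays. The 8 neutrophil precursor markers, which include genes of dividing precursors, averaged 3.29 in WT and 3.56 in Tg arrays. Both means lay below the lowest array median (3.72), and 1 of the 8 was called higher and 0 lower in Tg arrays. The part of these cells in the result was not tested.

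**Figure D4:**
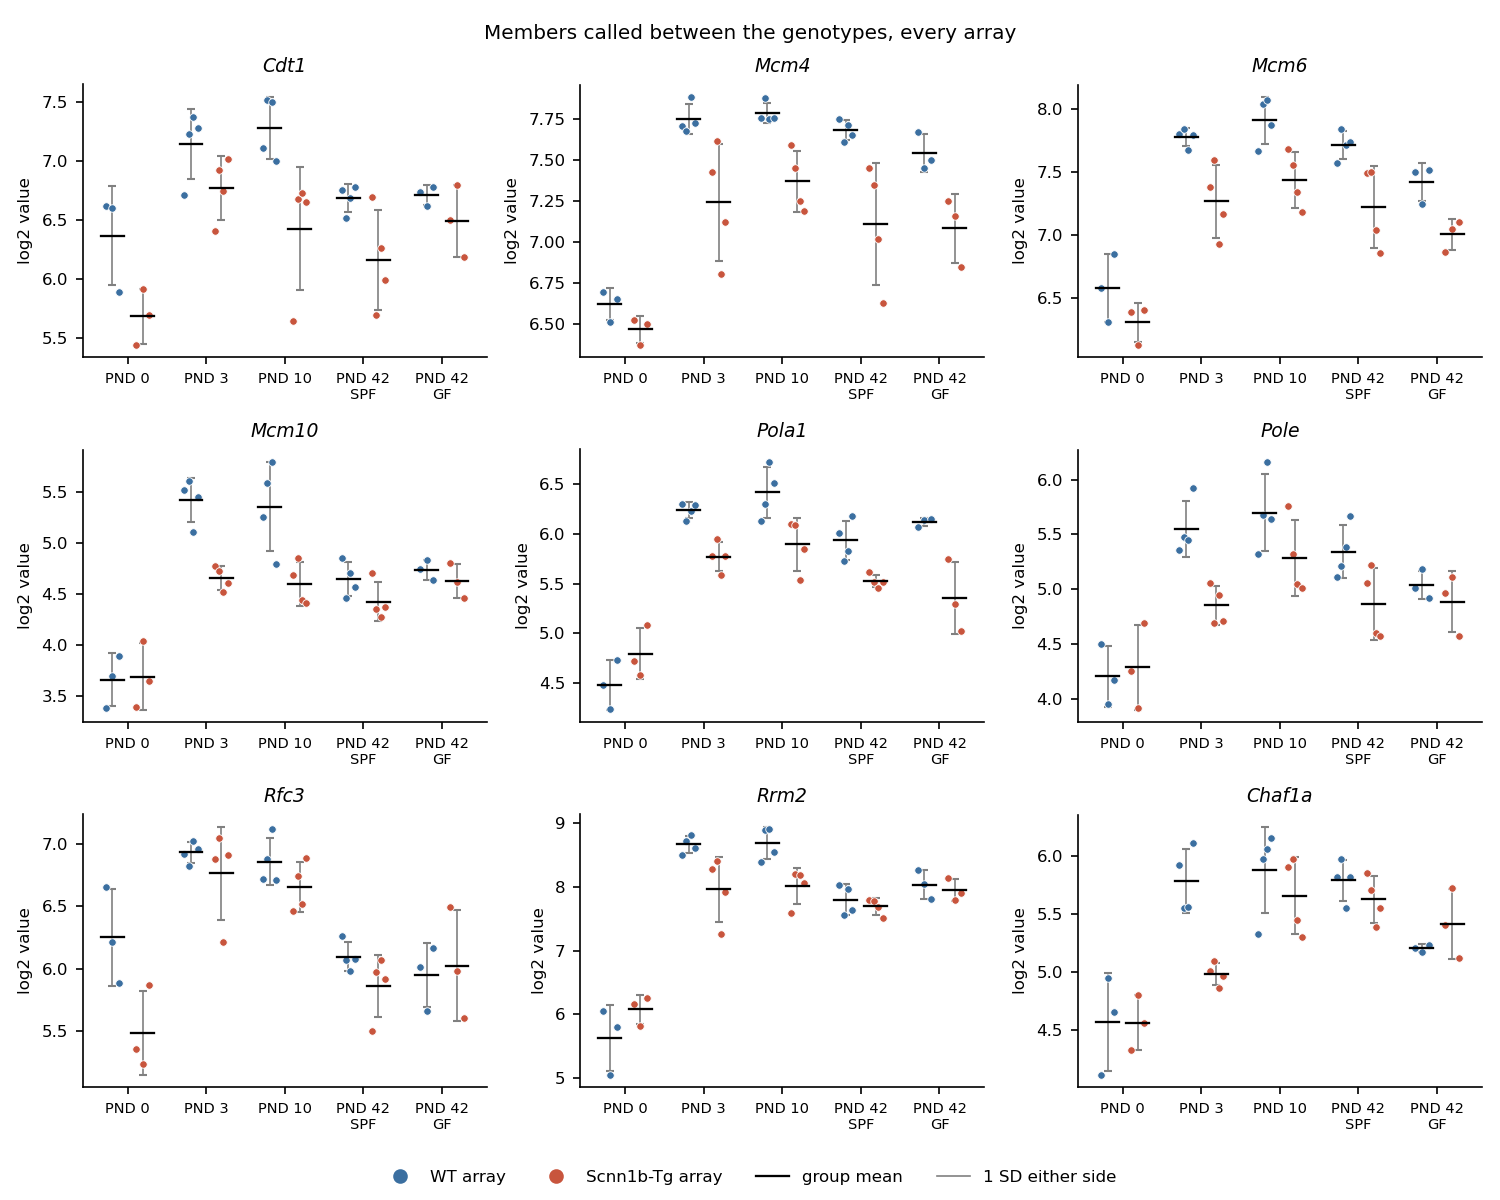
Log2 value (y axis) of 9 genes called between the genotypes, in every array by age, housing and genotype (x axis), with group means and 1 SD. For Chaf1a and Mcm10 at PND 3 and Mcm4 from PND 3 onward all Tg arrays lie below all WT arrays, and Rfc3 has its only called genotype difference at PND 0.

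At PND 10 the genes kept the lower side in Tg mice with fewer calls. Of 36, 34 had a lower mean in Tg arrays (46.2% of all features), 2 were called lower and 0 higher (0.435% and 1.13% of all features), 6 did not overlap (2.9%), and the median difference was -0.32. Cdt1, which loads the helicase with Cdc6, read 7.11, 7.51, 7.49 and 7.001 in WT and 5.65, 6.68, 6.73 and 6.65 in Tg arrays (-0.85 ± 0.22, 1.80-fold lower, adjusted p = 0.0396). All Tg arrays lay below all WT arrays, and replicate 1 lay far below the other Tg arrays (without it -0.59, adjusted p = 0.206). It was not called without WT replicate 1, 2 or 3 or Tg replicate 4 either. Mcm10 read 5.25, 5.58, 5.79 and 4.79 against 4.68, 4.85, 4.44 and 4.40 (-0.76 ± 0.17, adjusted p = 0.00955), where 1 WT array lay within the Tg range and the call was lost without WT replicate 2 or 3 or Tg replicate 4. The difference of Rrm2 was -0.68 at this age (adjusted p = 0.0999) and that of Cdc6 -0.62 (adjusted p = 0.0712). The count fell to 0 without WT replicate 2 or 3 or Tg replicate 4 and rose to 3 without Tg replicate 2. The neutrophil mean was 5.77 in WT and 5.63 in Tg arrays at this age (1 of 10 markers lower), the monocyte mean 5.96 and 6.54 (2 of 7 higher), and 3 of 15 alveolar macrophage markers were called lower. Their part in the result was not tested.

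In adults under SPF housing 33 of 36 genes had a lower mean in Tg arrays (55.5% of all features), 2 were called lower and 0 higher (1.77% and 2.72%), 4 did not overlap (5.64%) and the median difference was -0.23. Mcm4 read 7.75, 7.61, 7.71 and 7.65 in WT and 7.45, 7.35, 7.02 and 6.62 in Tg arrays, without overlap (-0.57 ± 0.14, adjusted p = 0.0135), and Mcm6 read 7.57, 7.85, 7.72 and 7.74 against 7.49, 7.50, 7.04 and 6.85 (-0.50 ± 0.15, adjusted p = 0.0443). The difference of Mcm4 was -0.51 at PND 3, -0.41 at PND 10 (adjusted p = 0.182), -0.57 at PND 42 SPF and -0.46 at PND 42 GF (adjusted p = 0.125), with no overlap at any of these ages. Without Tg replicate 4, the lowest for both genes, neither was called (-0.41 and -0.37, adjusted p = 0.113 and 0.241), and the count was 1 without any single WT array or Tg replicate 3. In these adults 3 of 4 club cell markers (mean 5.49 in WT and 6.77 in Tg arrays), 4 of 8 dendritic cell markers (3.61 and 4.07), 2 of 6 T cell markers and 2 of 10 neutrophil markers (4.85 and 5.53) were called higher in Tg mice. Of the neutrophil markers 1 was called lower, and of 7 monocyte markers 1 was called higher and 1 lower. Of 15 alveolar macrophage markers 3 were called higher and 1 lower (mean 10.33 in WT and 10.43 in Tg arrays). The part of these cells in the result was not tested.

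In adults under GF housing 29 of 36 genes had a lower mean in Tg arrays (56.2% of all features), 1 was called lower and 0 higher (1.77% and 3.14%), 8 did not overlap (12.1%) and the median difference was -0.16. The called gene was Pola1, which read 6.07, 6.14 and 6.15 in WT and 5.75, 5.29 and 5.03 in Tg arrays (-0.76 ± 0.17, 1.70-fold lower, adjusted p = 0.0045). Its genotypes did not overlap at PND 3 (-0.47, adjusted p = 0.0703), PND 10 (-0.52, adjusted p = 0.0653) or PND 42 SPF (-0.41, adjusted p = 0.124) either. The call was lost without Tg GF replicate 3 (-0.60, adjusted p = 0.0835). Called higher in Tg mice under GF housing were 3 of 4 club cell markers (5.71 in WT and 6.94 in Tg arrays), 3 of 10 neutrophil markers (4.86 and 6.23), 2 of 7 monocyte markers (5.48 and 6.36), 3 of 6 T cell markers (4.43 and 5.05) and 2 of 8 dendritic cell markers (3.54 and 4.11). Called lower were 1 neutrophil marker and 1 monocyte marker. Of 15 alveolar macrophage markers 2 were called higher and 1 lower (mean 10.23 in WT and 10.32 in Tg arrays). The part of these cells in the result was not tested.

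At PND 0 the genotypes did not fall to 1 side. Tg means were lower for 17 of 36 genes (55.1% of all features), 1 gene was called lower and 0 higher (1.59% and 2.74%), 3 had all Tg arrays below all WT arrays (6.69%) and the median difference was 0.02 (-0.02 after median centring). Rfc3, a subunit of the clamp loader, read 6.65, 6.21 and 5.88 in WT and 5.36, 5.23 and 5.87 in Tg arrays (-0.76 ± 0.22, adjusted p = 0.038). The highest Tg array, replicate 3, whose Scnn1b value was inside the range of the WT PND 0 arrays, lay 0.01 below the lowest WT array. Without that array the difference of Rfc3 was -0.95 (adjusted p = 0.0139), Pola2 was called as well (-0.58, adjusted p = 0.0265), 21 of 36 genes were lower and the median was -0.04. The count was 2 without Tg replicate 3, 3 without WT replicate 3 and 0 without any single one of the remaining arrays. In Tg arrays 7 of 7 skeletal muscle, 7 of 8 fibroblast and 4 of 7 erythroid markers were called higher at PND 0 and 4 of 15 alveolar macrophage markers lower, and the part of these cells was not tested.

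**Figure D5:**
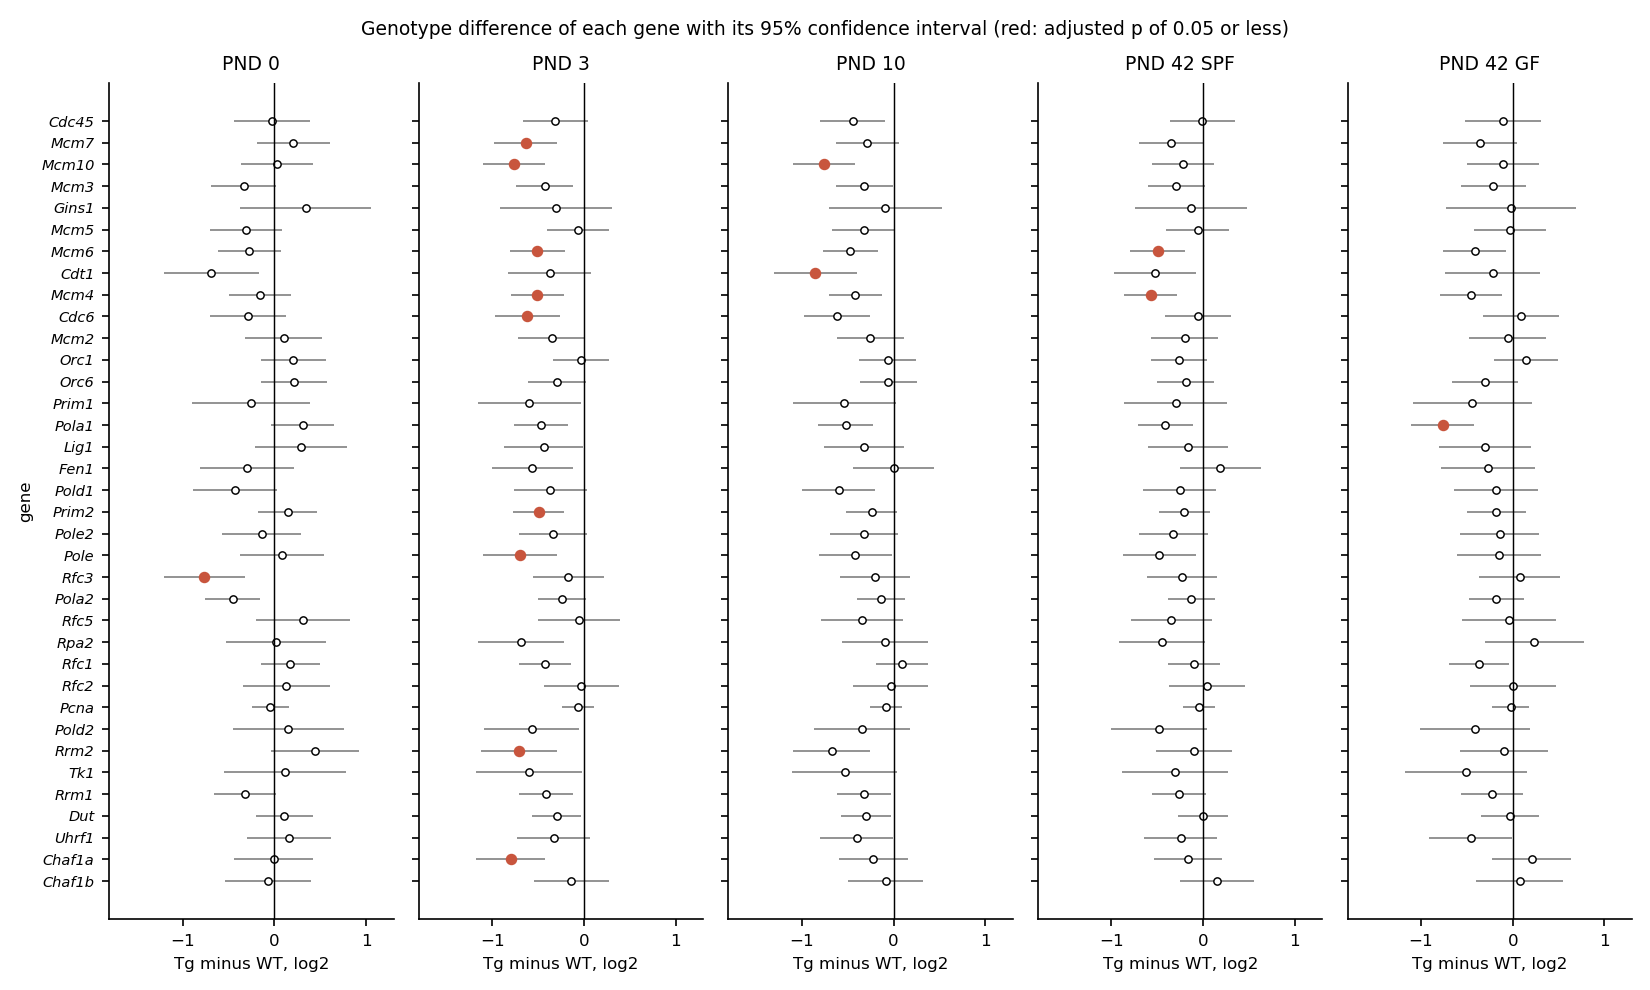
Tg minus WT difference (x axis, log2) of each of the 36 genes (y axis, by role) at each age and housing, with 95% confidence intervals, red where called. All 36 points lie left of 0 at PND 3, where 9 are red, against 17 of 36 at PND 0.

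Whether the genotype difference changed with age or housing was tested as an interaction. From PND 3 to PND 10 it was called for 0 of 36 genes (0.0553% of all features in either direction), from PND 3 to PND 42 SPF for 0 (1.23%) and from SPF to GF housing for 0 (0.00346%). At an unadjusted p under 0.05 these counts were 2, 5 and 0 (4.85%, 8.31% and 3.14% of all features in either direction), and without moderation of the variance, as in the methods' ANOVA, they were again 0 after adjustment. A gene called at 1 of these 3 ages, or under 1 housing, and not at another is thus not shown to differ between them. The added comparison of PND 3 with PND 0 is given above.

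After PND 3 the genes held their level until PND 10 and were somewhat lower in adults. From PND 3 to PND 10, 0 of 36 were called in WT (0.131% of all features in either direction) and 0 in Tg mice (1.45%), and an unadjusted p under 0.05 was reached by 0 and 3 genes (5.86% and 9.43% of all features), with median changes of 0.05 and 0.13, and the methods' ANOVA called 0 in each. From PND 10 to PND 42 SPF, 5 of 36 were called lower in WT (1.19% of all features lower) and 1 in Tg mice (2.03%), with medians of -0.30 and -0.21 and 30 of 36 below 0 in each. In nucleotide supply 3 of 4 genes fell in WT mice. Rrm2 fell from 8.40, 8.89, 8.91 and 8.55 to 8.03, 7.55, 7.98 and 7.63 (-0.89 ± 0.20, adjusted p = 0.0112), Rrm1 from 8.30, 8.61, 8.80 and 8.45 to 8.17, 7.99, 8.06 and 7.89 (-0.51 ± 0.14, adjusted p = 0.05), and Dut by 0.50 (-0.50, adjusted p = 0.0342). The ages did not overlap for Rrm2 and Rrm1.

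Rfc3 fell in both genotypes over the same interval. It read 6.72, 6.88, 7.12 and 6.71 in WT arrays at PND 10 and 6.26, 6.07, 5.98 and 6.07 at PND 42 (-0.76 ± 0.19, adjusted p = 0.0198), and 6.46, 6.74, 6.52 and 6.89 in Tg arrays and then 5.50, 5.97, 6.07 and 5.91 (-0.79 ± 0.19, adjusted p = 0.00899). Each pair of ages was apart. Mcm10 fell in WT mice to 4.46 to 4.85 (-0.71 ± 0.17, adjusted p = 0.0138) and differed by -0.17 in Tg mice (adjusted p = 0.749), where it was already 4.40 to 4.85 at PND 10. In WT mice the count was 0 without WT PND 10 replicate 3 or WT PND 42 replicate 4, 1 without WT PND 10 replicate 2 or WT PND 42 replicate 2, 2 without WT PND 42 replicate 3, 3 without WT PND 10 replicate 4 and 8 without WT PND 10 replicate 1, and in Tg mice it was 2 without Tg PND 42 replicate 1.

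Germ-free housing moved none of the genes past the threshold. Between GF and SPF adults 0 of 36 were called in WT (0.0657% of all features in either direction) and 0 in Tg mice (0.142%), at an unadjusted p under 0.05 the counts were 3 and 1 (4.51% and 7.77% of all features), and the methods' ANOVA called 0 in each. The median difference was -0.11 in WT and -0.08 in Tg mice, and the largest were Chaf1a in WT (-0.58, adjusted p = 0.683) and Fen1 in Tg mice (-0.76, adjusted p = 0.289). A second Fen1 feature, with a lower mean over the arrays (4.36 against 5.53), gave 0.05 in Tg mice.

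Other genes of replication and the cell cycle, taken from lists of the same pathways, rose in part over the first days, where 14% of all features were called higher in WT and 16% in Tg mice. The counts lower in Tg mice at PND 3 stand beside 1.87% of all features. Of 15 other licensing and firing factors 7 rose in WT and 9 in Tg mice from PND 0 to PND 3, among them Ticrr, which prepares origins to fire (1.56 in WT, adjusted p = 7.81e-09, and 0.73 in Tg mice, adjusted p = 0.000666), and Ticrr was also lower in Tg mice at PND 3 (-0.75, adjusted p = 0.00193). Of 20 other fork and polymerase factors 15 and 14 rose, and 4 were lower in Tg mice at PND 3, led by Wdhd1, which ties the helicase to polymerase alpha (-0.85, adjusted p = 0.000826), and Clspn, a checkpoint mediator at the fork (-0.77, adjusted p = 0.0464). Of 12 other deoxynucleotide genes 7 and 6 rose, and Dck, which phosphorylates salvaged deoxycytidine, rose by 1.78 in WT (adjusted p = 3.76e-10) and was lower in Tg mice at PND 3 (-0.55, adjusted p = 0.0278). Of 5 other chromatin replication factors 4 rose in each genotype, with the histone chaperone Asf1b at 2.56 in WT mice (adjusted p = 5.16e-09). In the synthesis of nucleotide bases, 2 of 5 pyrimidine genes were called higher in WT mice (median 0.41), and 2 higher and 1 lower in Tg mice (median 0.20). Of 15 purine and one-carbon genes 4 were called higher in WT (median 0.01) and 2 in Tg mice (median 0.06).

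Regulators and mitosis genes were listed as well. Of 28 E2F and G1/S regulators 13 rose and 3 fell in WT mice from PND 0 to PND 3 (median 0.45), and 10 rose and 7 fell in Tg mice (median 0.09). Called lower over this interval were 12% of all features in WT and 14% in Tg mice. At PND 3, 5 regulators were lower in Tg than in WT mice, led by E2f8, a repressor of the family (-0.93, adjusted p = 0.000758). E2f8 was lower in Tg mice at PND 10 (-0.83, adjusted p = 0.00611), PND 42 SPF (-0.71, adjusted p = 0.0109) and PND 42 GF (-0.72, adjusted p = 0.0276) as well. The regulators did not all go this way. In Tg mice 2 were called higher and 1 lower at PND 0 (2.74% and 1.59% of all features), and 0 and 4 at PND 10 (1.13% and 0.435%). In adults 2 were called higher and 2 lower under SPF housing (2.72% and 1.77%), and 2 and 2 under GF housing (3.14% and 1.77%). Of 21 mitosis genes 20 rose in each genotype in the first days and 1 fell in Tg mice, with medians of 1.81 in WT and 1.45 in Tg mice, 5 were lower in Tg mice at PND 3 (median -0.52, with Anln at -0.99, adjusted p = 0.00489), and 11 fell in WT and 7 in Tg mice from PND 10 to PND 42 (1.19% and 2.03% of all features).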

How the data were processed

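RNA of Ly-6G-depleted lavage cells was amplified (12 ng per array, Ovation Pico WTA) and hybridized to 36 Affymetrix Mouse Gene ST arrays. The deposited values are log2 intensities that the authors made with RMA in Partek (6.5 in the submitters' notes): adjustment for GC content and sequence, quantile normalization and median polish. Quantile normalization gives the arrays similar distributions, so that a shift of all genes cannot be seen. Of 35556 features, 6616 numbered below the first annotated one were left out, and no column was unused (0).

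Using R 4.3.3 and limma 3.58.1, the log2 values of all genes were modelled with 1 mean for each of 10 groups and all 36 arrays, from which 17 contrasts were taken: 5 between genotypes, 6 between ages, 2 between housings and 4 interactions, the last of them added once the data had been seen. Tests were moderated, two-sided and adjusted over 28940 features by the Benjamini-Hochberg method. The methods' own test, an ANOVA without moderation, was an alternative. The members and lists were chosen with earlier results of these data known. Array values or their ranges, in some of the groups, are given for the called genes with the largest change (up to 4 per contrast). The same holds for the 3 genes with the smallest range of group means. Other called genes were named after their values were seen. The number of arrays limits the precision. For PND 42 the labels give single mice and for younger ages separate pools. Replicate numbers do not pair the arrays. The procedure was tested on simulated data. Promoters are from RefSeq (GRCm38.p6). As alternatives, each array was left out in turn, the replicate number was a block, the fit held the groups of a contrast only, arrays were weighted, values were quantile normalized once more or centred on the array median, dim features were removed, features of a symbol were averaged, or the threshold was 0.01.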

Additional observations from a re-analysis of the deposited data

Results flagged for a closer look

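In groups of 4 arrays, an array was set apart by its gap to the nearest other array as a share of the group's range. The gap had to be above Dixon's 95% critical value. Of 102 groups over the 17 genes whose array values or ranges are given, 3 had one, where chance gives about 1 in 20. Cdt1 read 5.65 in Tg PND 10 replicate 1 and 6.65 to 6.73 in the other arrays of its group. Mcm4 read 7.88 in WT PND 10 replicate 2 and 7.75 to 7.76 in the others. Uhrf1 read 6.87 in WT PND 42 SPF replicate 1 and 6.45 to 6.49 in the others.

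The genotype difference at PND 3 differed from that at PND 0 by the interaction test for Rrm2 (-1.15, adjusted p = 0.0346) and Pola1 (-0.78, adjusted p = 0.0488), a comparison added after the data were seen. No gene had all Tg arrays above all WT arrays at one age and all below at another (0 of 36).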

How the results depend on the processing

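None of the named gene changes recomputed under the alternatives reversed its direction. The median genotype difference at PND 0 went from 0.02 to -0.02 under median centring and to -0.04 without Tg PND 0 replicate 3. Counts of the 36 genes called that moved by over 1.5 times were these. For the genotype difference at PND 0 (1 gene) they were 0 with the compared groups alone, array weights, the methods' ANOVA, a threshold of 0.01 or the replicate block, and 2 with quantile normalization again or median centring (the last chosen after seeing the data). At PND 3 (9 genes) they were 5 with the ANOVA or quantile normalization again, 4 with the replicate block and 2 at 0.01. At PND 10 (2 genes) they were 0 with the compared groups alone, 1 with the ANOVA or at 0.01 and 7 with array weights. At PND 42 SPF (2 genes) they were 1 with the compared groups alone, the ANOVA, quantile normalization again or the replicate block and 0 at 0.01, and at PND 42 GF (1 gene) 0 with the compared groups alone. From PND 10 to PND 42 they were 9 with array weights and 0 at 0.01 in WT mice (5 genes), and 2 with array weights or quantile normalization again in Tg mice (1 gene). From PND 3 to PND 10 in Tg mice (0 genes) the filter on dim features gave 1. The added interaction (2 genes) gave 0 with the compared groups alone, the ANOVA or at 0.01, and 1 with array weights, quantile normalization again or median centring. The cause was not tested.

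With single arrays left out, counts ran from 0 to 3 at PND 0, 2 to 7 at PND 3, 0 to 3 at PND 10, 0 to 2 at PND 42 SPF and 0 to 1 at PND 42 GF. They ran from 0 to 8 in WT and 1 to 2 in Tg mice from PND 10 to PND 42, from 0 to 1 in Tg mice from PND 3 to PND 10 (1 without Tg PND 10 replicate 4), and from 0 to 6 for the added interaction. Replicate numbers did not pair the arrays: of 18 pairs 1 had a correlation of deviations over 0.1 (range -0.126 to 0.244), and 6 matched their own number best. The rise from PND 0 to PND 3 kept its counts within 1.5 times under each alternative. Few arrays per group limit what the genotype comparisons can show.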
